A study of Penicillium oxalicum with 72 samples.

Results

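Hyphae of *Penicillium oxalicum* supplied with glucose (GLU) for 12 h were compared with hyphae left without a carbon source (NC) for the same time. The comparison was chosen by the labels of the libraries, which give the medium and the time, and it holds 6 of the 72 libraries of the series, 3 on GLU and 3 on NC. *P. oxalicum* is a filamentous fungus that secretes cellulases, xylanases and amylases. All libraries came from 1 strain, MuKu70 (Δ*PoxKu70*), a single-deletion line in which foreign DNA integrates at the intended site more often, so both groups lack *PoxKu70*. The locus number of *PoxKu70* was not given in the sources used here, and the deletion was not checked in the libraries. In both groups the mycelium was first grown on glucose, washed, and about 1 g of it was moved to 100 mL of fresh basic medium at 28°C and 180 rpm, which contained 1% glucose for the GLU group and no added carbon for the NC group. mRNA was sequenced and the level of each gene was given as FPKM, the number of sequenced fragments scaled by the length of its exons and by the mapped total of the library. The study describes the replicates as biological, but the labels do not say that they came from separate flasks, and *p*-values measure the spread between these libraries.

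The files of the 6 libraries listed 9249–9411 genes each, with summed FPKM of 996160–1024024, and a gene left out of a file was taken as 0. Read counts were not used here. The ratios of FPKM among weakly expressed genes placed the depth of the libraries at 0.855–1 times that of GLU replicate 1. Each NC library came to 1, from 215–224 genes. Equal rounded values in 2 libraries also give a ratio of 1, so these depths are rough. Replicates resembled each other more than the other group: Pearson's *r* of log2(FPKM + 1) across 8898 genes was 0.984–0.993 within a group and 0.835–0.859 between GLU and NC. A library stood more than 2 times above both others of its group in 13–49 genes of the 8308 or 8611 that averaged at least 1 FPKM in that group. GLU replicate 1 did so in 37 genes, and 28 of them were genes that were lower on GLU than on NC. Many of these 28 have consecutive locus numbers within *POX01167* to *POX01188*, described below, and so are not scattered genes. *POX01176*, for example, had 103.8 FPKM in GLU replicate 1, against 5.19 and 20.55 FPKM in the other GLU libraries.

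Glucose is taken up by hexose transporters and broken down through glycolysis and the tricarboxylic acid (TCA) cycle. In filamentous fungi its presence is also known to lower the transcription of genes for other carbon sources, a response called carbon catabolite repression in which the zinc finger repressor CreA takes part. A mycelium without carbon lives on its reserves, and starved fungi are known to secrete hydrolases, recycle wall polymers and turn to sporulation and secondary metabolism.

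A total of 2306 differentially expressed genes (DEGs; limma at an unadjusted significance level of 0.05, with a log2 fold change of at least 1 in size) were found on GLU compared with NC, which was 25.9% of the 8898 genes that averaged at least 1 FPKM over the series. Of these, 669 were up-regulated (7.52% of the genes tested) and 1637 were down-regulated (18.4%). Fold changes are given as GLU over NC on the scale of log2(FPKM + 1), which understates changes of weakly expressed genes, with the standard error and the *p*-value adjusted over all genes by the Benjamini-Hochberg method. Sizes of rises and falls followed by ± are on this log2 scale. After a mean in FPKM, ± gives the standard deviation of the 3 libraries of the group instead. With an adjusted *p*-value of at most 0.05 in place of the unadjusted one, 2301 of the 2306 genes were still called. The GLU and NC libraries did not overlap in 2296 of the DEGs, against 74.5% of all genes tested. Large changes occurred in both directions: 125 genes rose and 189 fell by at least 3 on the log2 scale.

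The balance of directions depended on how the libraries were scaled. The median of all log2 fold changes was -0.31 with the deposited FPKM, and 29.0% of the DEGs were up-regulated. Rescaling the libraries by the median of ratios shifted the scale by 0.31, after which 2083 genes were called, 949 of them up and 1134 down, so that 45.6% were up-regulated. Of the DEGs, 1803 were called in the same direction under both scalings and none changed sign. The 10 most abundant genes took 17.6–18.8% of the summed FPKM in the GLU libraries, against 12.3–12.9% in the NC libraries.

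**Figure D1:**
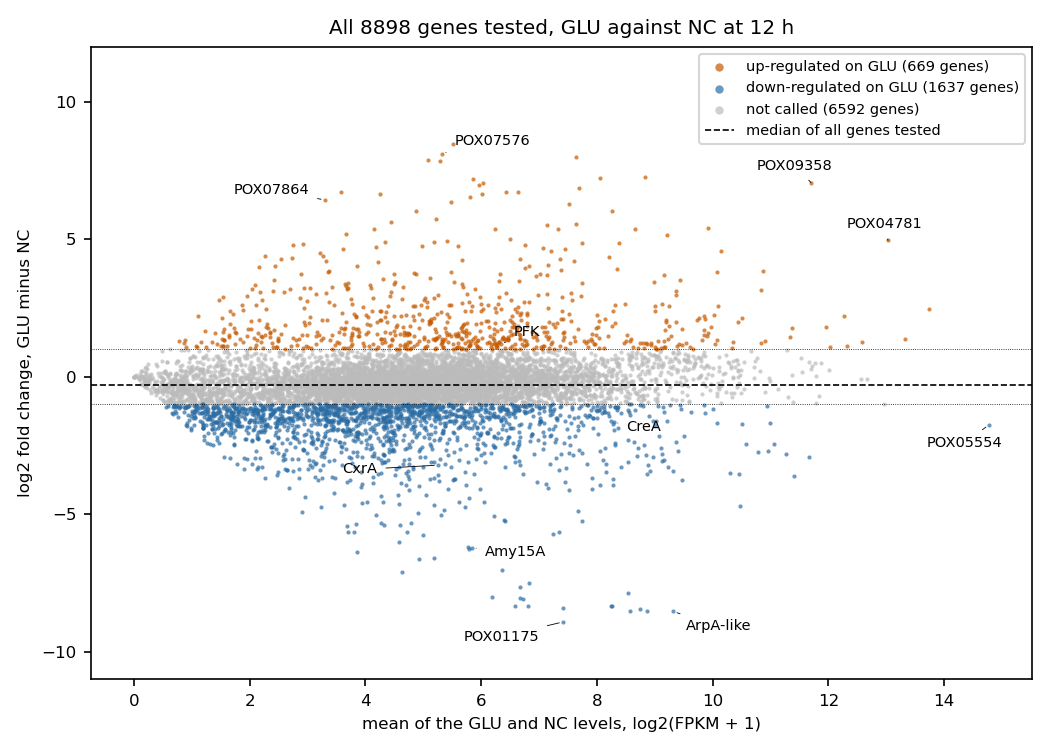
Log2 fold change of GLU over NC at 12 h (vertical axis) against the mean level of the gene in both groups on the log2(FPKM + 1) scale (horizontal axis), 1 point for each of the 8898 genes tested. The 669 up-regulated genes are orange, the 1637 down-regulated genes blue and the others grey, dotted lines mark a log2 fold change of 1 in either direction, and the dashed line is the median of all genes at -0.31, below 0.

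The most abundant transcripts differed between the media. *POX04781*, a gene without a function in the sources used here, had 47864, 45706 and 46379.7 FPKM in the GLU libraries, against 1549, 1413 and 1524 FPKM in the NC libraries, and was the most abundant transcript of every GLU library (log2 fold change = 4.96 ± 0.11, adjusted *p* = 1.65e-07). *POX09358* had 30043, 35799 and 35202 FPKM in the GLU libraries, against 151, 151 and 681 FPKM in the NC libraries (log2 fold change = 7.07 ± 0.55, adjusted *p* = 2.09e-05). *POX09827* had 27092, 32630.0 and 33746 FPKM in the GLU libraries, against 7908, 7004 and 3121 FPKM in the NC libraries (log2 fold change = 2.48 ± 0.34, adjusted *p* = 0.000442). Neither carries an annotated function, and the NC libraries of both differed among themselves, NC replicate 3 being the highest in *POX09358* and the lowest in *POX09827*. *POX05554* was the most abundant transcript of every NC library and fell on GLU, with 15874, 15150.0 and 15119 FPKM in the GLU libraries, against 48181, 51659 and 54155 FPKM in the NC libraries (log2 fold change = -1.74 ± 0.15, adjusted *p* = 3.62e-05). *POX06036*, the remaining gene among the 5 most abundant on GLU, rose by 1.37 ± 0.16 (adjusted *p* = 0.000179). Among the 5 most abundant genes on NC, *POX04863* and *POX08562* fell, with log2 fold changes of -3.61 ± 0.17 and -2.92 ± 0.10 (adjusted *p* = 1.84e-06 and 5e-07). *POX01105* had 5770.0, 5623 and 5614 FPKM in the GLU libraries, against 11548, 11521 and 10879 FPKM in the NC libraries and lay just under the fold threshold (log2 fold change = -0.997 ± 0.11, adjusted *p* = 0.000117), which it passed without GLU replicate 1 (-1.01) or NC replicate 3 (-1.02). The remaining gene among these 5, *POX01176* (ArpA-like), is described with the conidiation genes.

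The lists of genes used from here on come from the annotation and tables of the study, and most were drawn by it from genes that it called in these or other libraries of the series. Their counts are therefore not independent evidence of a direction. Of the 1150 listed genes, 1064 were tested and 465 were DEGs. Counts of each list are to be read beside all genes tested, of which 7.52% rose and 18.4% fell.

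Among the transcripts of sugar transporters a few were far higher on GLU and most were lower. Of the 64 sugar transporters tested (69 listed), 5 rose and 46 fell on GLU, and their median log2 fold change was -1.59, against -0.31 over all genes. The transporter *POX07576* had 584, 629.9 and 782 FPKM in the GLU libraries, against 1.06, 1.24 and 1.88 FPKM in the NC libraries (log2 fold change = 8.12 ± 0.16, adjusted *p* = 1.46e-07). *POX03096* had 475, 549.8 and 582 FPKM in the GLU libraries, against 6.73, 3.79 and 4.12 FPKM in the NC libraries (log2 fold change = 6.54 ± 0.18, adjusted *p* = 2.22e-07). *POX07227*, annotated as a sugar:H+ symporter, had 172, 162 and 128 FPKM in the GLU libraries, against 2.23, 2.07 and 1.9 FPKM in the NC libraries (log2 fold change = 5.65 ± 0.12, adjusted *p* = 1.46e-07). In these 3 genes every GLU library lay far above every NC library. The largest changes were chosen among DEGs without overlap, and the groups did not overlap in 74.5% of all genes tested. The largest falls were those of *POX04369*, *POX06426* and *POX03742*, with log2 fold changes of -7.102 ± 0.20, -5.31 ± 0.22 and -4.72 ± 0.12 (adjusted *p* = 2.26e-07, 1.07e-06 and 1.85e-07). *POX04369* was at 0.77–1.77 FPKM on GLU, against 255–350.5 FPKM on NC.

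The cellodextrin transporters, which import short chains released from cellulose, were also lower on GLU. *POX05915/CdtD* had 19.7, 10.04 and 13.7 FPKM in the GLU libraries, against 261, 261 and 243 FPKM in the NC libraries (log2 fold change = -4.09 ± 0.20, adjusted *p* = 2.5e-06). *POX06051/CdtC* had 67.8, 7.51 and 29.2 FPKM in the GLU libraries, against 112, 115 and 107 FPKM in the NC libraries (log2 fold change = -2.105 ± 0.65, adjusted *p* = 0.022). The GLU libraries of *CdtC* lay far apart, GLU replicate 1 being nearest to NC, and its log2 fold change lay between -2.81 and -1.30 when 1 library was left out.

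Transporters of other kinds moved in both directions. Among the 154 other members of the major facilitator superfamily tested (167 listed), 27 rose and 54 fell (median -0.41), and among 33 ABC transporters tested (35 listed), 6 rose and 9 fell (median -0.089, and 0.19 after rescaling). In the superfamily the largest rises were those of *POX07863*, *POX09163* and *POX07864*, by 6.72 ± 0.36, 6.64 ± 0.14 and 6.43 ± 0.092. *POX09163*, which carries the domain of a fungal trichothecene efflux pump, had 208, 205 and 157 FPKM in the GLU libraries, against 1, 1.06 and 0.66 FPKM in the NC libraries. *POX07864* was at 89.0–93.7 FPKM on GLU, against 0–0.15 FPKM on NC. *POX08182* and *POX07757*, 2 more major facilitators, rose by 6.05 ± 0.091 and 4.78 ± 0.17. The falls were led by *POX01168* (-8.03 ± 0.29), *POX06064* (-5.76 ± 0.17) and *POX02405* (-5.73 ± 0.15), the last with the domain of proton-dependent oligopeptide transporters, and *POX08749* fell, with a log2 fold change of -5.64 ± 0.21. *POX02405* had 24.04, 15.6 and 19.9 FPKM in the GLU libraries, against 1161, 1115 and 1003 FPKM in the NC libraries. Adjusted *p*-values of these 9 genes were 1.08e-07 to 3.47e-06. Of the ABC transporters, *POX09334*, *POX06280* and *POX04431* rose by 5.01 ± 0.19, 3.53 ± 0.1 and 3.35 ± 0.12, and *POX00868*, *POX02438* and *POX03936* fell, with log2 fold changes of -2.48 ± 0.12, -2.36 ± 0.24 and -2.18 ± 0.08 (adjusted *p* = 2.26e-07 to 8.12e-05). No function beyond the transporter class is given for most of these genes. Over all 251 transporters tested (271 listed), 38 rose and 109 fell.

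**Figure D2:**
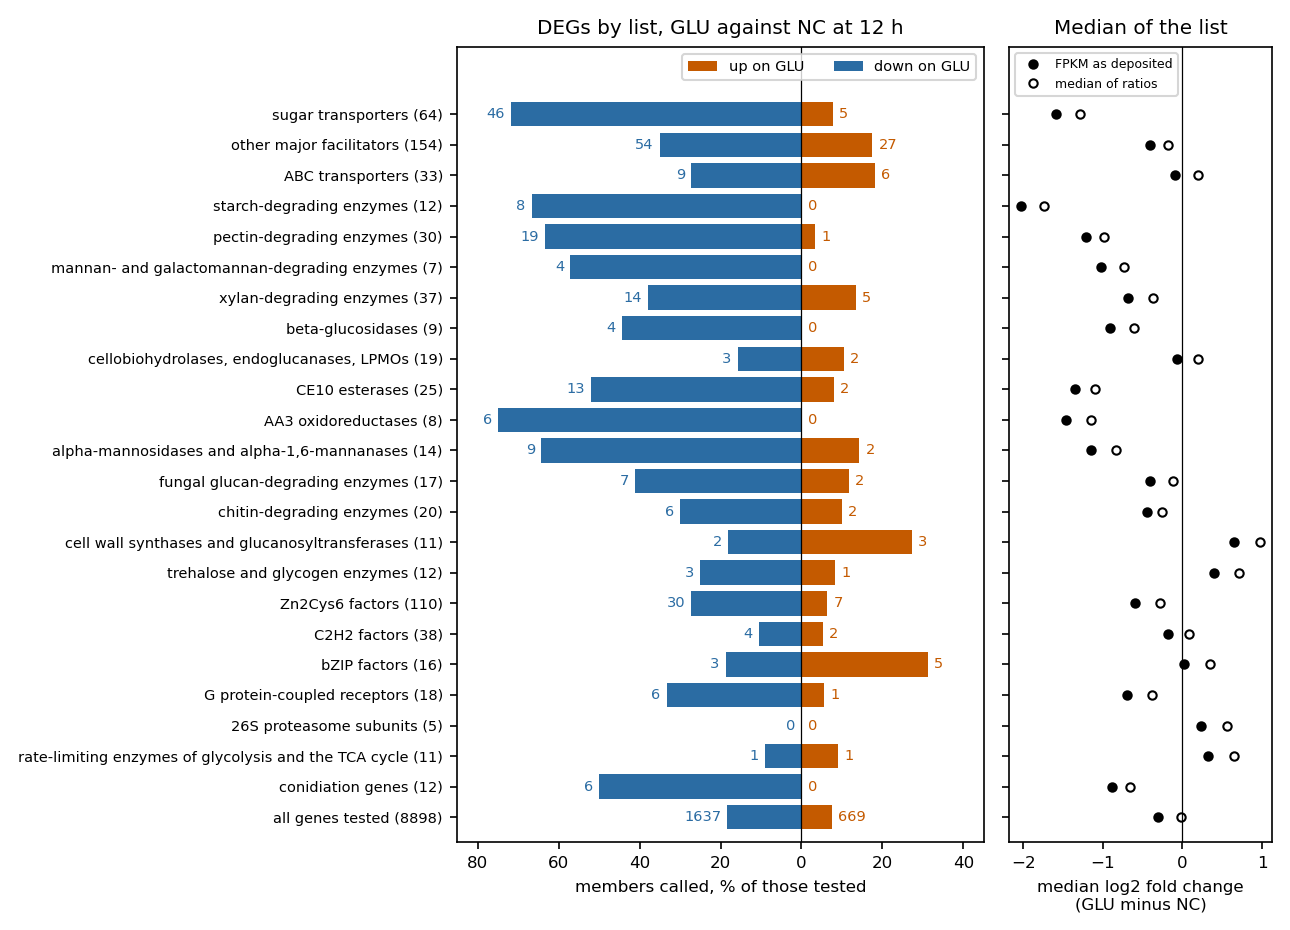
Share of the tested members of each list that were called up on GLU (orange, to the right) or down on GLU (blue, to the left), in percent, with the number of genes beside each bar and the number tested in brackets. The right panel gives the median log2 fold change of each list with the deposited FPKM (filled circles) and with libraries rescaled (open circles). Sugar transporters (46 of 64 down) and starch-degrading enzymes (8 of 12 down) lie far from the lowest row, all genes tested.

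Of the 12 rate-limiting enzymes of glycolysis and the TCA cycle listed, 11 were tested, 1 rose and 1 fell, and the median was 0.32. That was 18.2% called, against 25.9% of all genes tested. Phosphofructokinase *POX08888*, which commits hexose to glycolysis, had 114, 123 and 125 FPKM in the GLU libraries, against 53.3, 53.1 and 52.04 FPKM in the NC libraries (log2 fold change = 1.18 ± 0.065, adjusted *p* = 4.05e-06). Pyruvate kinase *POX02744*, which forms pyruvate, had 398, 415 and 439.6 FPKM in the GLU libraries, against 236, 248 and 239 FPKM in the NC libraries. Its log2 fold change of 0.79 ± 0.068 was under the threshold, and passed it after rescaling (1.11). The groups did not overlap, as in 74.5% of all genes tested. The hexokinases, which phosphorylate glucose, did not pass it. *POX04253* and *POX04475* had log2 fold changes of 0.39 ± 0.069 and 0.32 ± 0.088, and *POX05787* one of -0.70 ± 0.088. The fourth hexokinase, *POX01079*, was not tested, and was at 0.45–0.86 FPKM on GLU and 0.73–0.86 FPKM on NC.

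In the TCA cycle, citrate synthase *POX04356* fell, with 38.01, 37.1 and 31.97 FPKM in the GLU libraries, against 79.3, 87.7 and 95.2 FPKM in the NC libraries (log2 fold change = -1.27 ± 0.098, adjusted *p* = 2.11e-05), a call that was lost after rescaling (-0.95). *POX01075*, the citrate synthase with the higher level, averaged 961 ± 79.8 FPKM on GLU and 1245 ± 119 FPKM on NC and was not called (-0.37 ± 0.10). Isocitrate dehydrogenases *POX06270* and *POX09065* had log2 fold changes of 0.78 ± 0.061 and 0.64 ± 0.069, of which *POX06270* passed the threshold after rescaling (1.11). Oxoglutarate dehydrogenases *POX00538* and *POX09663* had log2 fold changes of -0.24 ± 0.071 and 0.20 ± 0.073. The 5 subunits of the 26S proteasome listed were all tested and none was called, with a median of 0.24.

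Starch-degrading enzymes were lower on GLU as a group. All 12 listed genes were tested, none rose and 8 fell, also after rescaling, and the median was -2.03. Glucoamylase *POX01356/Amy15A*, which releases glucose from chain ends, had 6.71, 4.62 and 5.57 FPKM in the GLU libraries, against 424, 580.4 and 480.2 FPKM in the NC libraries (log2 fold change = -6.22 ± 0.15, adjusted *p* = 1.85e-07). The α-amylase *POX09352/Amy13A*, which cuts within the chain, had 2.05, 1.96 and 2.19 FPKM in the GLU libraries, against 133, 163 and 96.01 FPKM in the NC libraries (log2 fold change = -5.39 ± 0.18, adjusted *p* = 3.86e-07). The α-glucosidase *POX03741* had 12.6, 11.5 and 11.2 FPKM in the GLU libraries, against 196, 186 and 126 FPKM in the NC libraries (log2 fold change = -3.72 ± 0.17, adjusted *p* = 1.43e-06). Every GLU library lay below every NC library in the 3 genes, but *Amy15A* was chosen among DEGs without overlap. Of all genes tested, 74.5% did not overlap. The summed FPKM of the list was 142–153 in the GLU libraries, against 1080–1352 in the NC libraries.

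Genes for the breakdown of cellulose were called about as often as all genes. Of the 19 cellobiohydrolases, endoglucanases and cellulose monooxygenases, 2 rose and 3 fell, which was 26.3% called against 25.9% of all genes tested, and the median was -0.064 (0.19 after rescaling). Cellobiohydrolase *POX05587/Cel7A-2*, which cuts cellobiose from the ends of cellulose chains, had 3.11, 1.46 and 5.83 FPKM in the GLU libraries, against 1.14, 0.75 and 0.78 FPKM in the NC libraries. It was called up (log2 fold change = 1.12 ± 0.34, adjusted *p* = 0.0198), but not when GLU replicate 3 was left out (0.76). The xyloglucan-specific endoglucanase *POX06983* had 35.8, 40.5 and 36.4 FPKM in the GLU libraries, against 4.57, 3 and 2.35 FPKM in the NC libraries (log2 fold change = 3.19 ± 0.18, adjusted *p* = 4.39e-06). The falls were those of the monooxygenases *POX05968* and *POX09256* (-1.57 ± 0.18 and -1.53 ± 0.19) and of the swollenin *POX08485* (-1.16 ± 0.27, lost after rescaling and without GLU replicate 2). The other named members, *Cel6A*, *Cel7A-1*, *Cel7B*, *Cel5A*, *Cel5B*, *Cel5C*, *Cel12A*, *Cel45A*, *Cel61A* and *POX08897/AA9*, were not called, with log2 fold changes of -0.70 to 0.81 and at most 26.01 FPKM in any library. *POX04786/Cel6A*, another cellobiohydrolase, had 3.28, 2.41 and 6.82 FPKM in the GLU libraries, against 4.89, 2.89 and 4.69 FPKM in the NC libraries.

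β-Glucosidases, which split cellobiose into glucose, were lower on GLU in 4 of 9 genes and higher in none (median -0.91). *POX06835/Bgl1* had 13.8, 14.6 and 15.3 FPKM in the GLU libraries, against 48.5, 54.9 and 55.1 FPKM in the NC libraries (log2 fold change = -1.79 ± 0.083, adjusted *p* = 1.74e-06). *POX00968* and *POX08882* fell, with log2 fold changes of -1.93 ± 0.099 and -1.35 ± 0.13 (adjusted *p* = 2.81e-06 and 5.98e-05).

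Xylan-degrading enzymes were split. Of 37 tested (38 listed), 5 rose and 14 fell, and 7 and 8 did so after rescaling (median -0.69, and -0.37 rescaled). The GH11 endoxylanase *POX01417* had 61.8, 64.1 and 54.04 FPKM in the GLU libraries, against 1.96, 1.2 and 1.19 FPKM in the NC libraries (log2 fold change = 4.65 ± 0.14, adjusted *p* = 2.87e-07). Endoxylanase *POX06783/Xyn11A* had 50, 47.7 and 42.8 FPKM in the GLU libraries, against 12.5, 9.26 and 6.86 FPKM in the NC libraries (log2 fold change = 2.21 ± 0.19, adjusted *p* = 3.33e-05), and the arabinofuranosidase *POX01744* rose by 2.49 ± 0.12. Opposite to them, the GH10 endoxylanase *POX05916* had 0.62, 0.57 and 0.51 FPKM in the GLU libraries, against 23.9, 29.1 and 21.9 FPKM in the NC libraries (log2 fold change = -4.04 ± 0.12, adjusted *p* = 2.93e-07). Feruloyl esterase *POX01117* and β-xylosidase *POX01646* fell, with log2 fold changes of -3.18 ± 0.12 and -1.94 ± 0.11, while *POX08484/Xyn11B* fell, with a log2 fold change of -1.01 ± 0.13, a call that was lost after rescaling (-0.70) and without GLU replicate 2 or NC replicate 1. *POX00063/Xyn10A* was at 0.25–1.54 FPKM on GLU and 0.60–1.24 FPKM on NC and was not called. Members of the GH11 family of endoxylanases were thus called in both directions.

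Pectin-degrading enzymes were mostly lower on GLU, with 19 of 30 tested down and 1 up (33 listed, median -1.22). Pectin lyase *POX09802* had 0.65, 0.81 and 0.35 FPKM in the GLU libraries, against 18.04, 19.3 and 16.9 FPKM in the NC libraries (log2 fold change = -3.58 ± 0.13, adjusted *p* = 6.57e-07). The rhamnogalacturonan hydrolase *POX01225* and the galactanase *POX06689* fell, with log2 fold changes of -2.54 ± 0.12 and -2.34 ± 0.20, and the pectin methylesterase *POX07932* rose by 1.76 ± 0.14. Of 7 mannan- and galactomannan-degrading enzymes, 4 fell and none rose (median -1.02), led by the mannanase *POX01937* (-1.57 ± 0.22), the β-mannosidase *POX00759* (-1.27 ± 0.10) and the α-galactosidase *POX04444* (-1.03 ± 0.11). *POX04444* was not called without GLU replicate 1 (-0.95) or NC replicate 1 (-0.99), and after rescaling 1 of the 4 genes was still called. Over all 361 carbohydrate-active enzymes tested (392 listed), 34 rose and 142 fell.

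**Figure D3:**
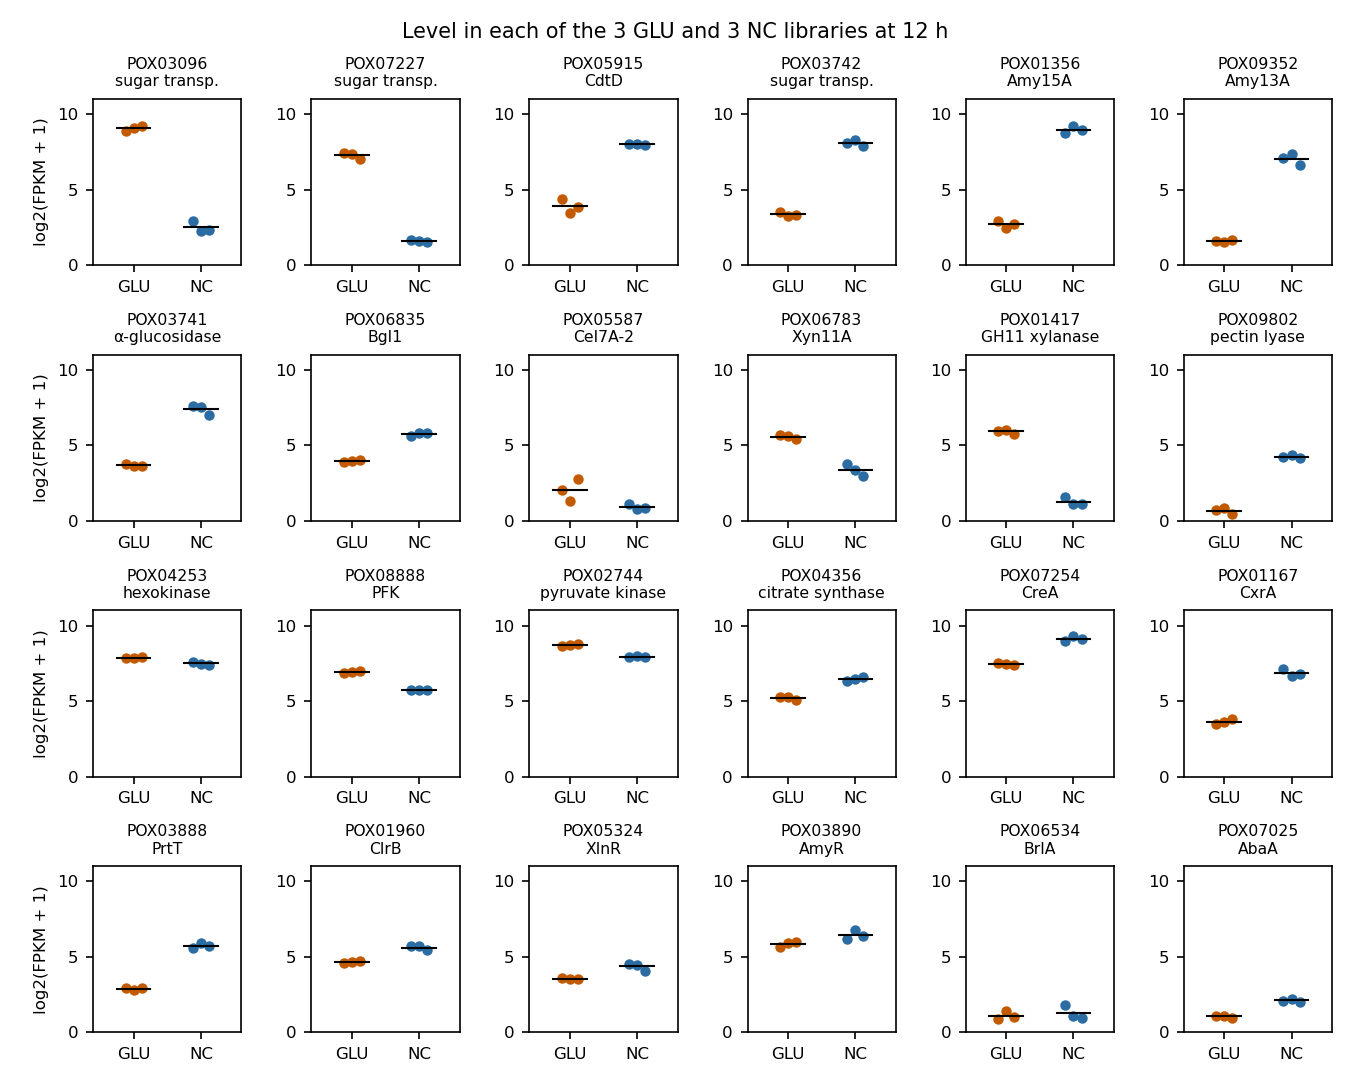
Level of 24 genes on the log2(FPKM + 1) scale in each library, GLU in orange on the left and NC in blue on the right of each panel, with a bar at the group mean of 3 libraries. The transporters *POX03096* and *POX07227* and the xylanase *POX01417* are higher in every GLU library, whereas *Amy15A*, *Amy13A*, *CreA*, *CxrA* and *PrtT* are lower in every GLU library, and *BrlA* is near 0 in both groups.

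Many CE10 esterases and most AA3 oxidoreductases fell on GLU. Of 25 CE10 esterases tested (27 listed), 2 rose and 13 fell, with a median of -1.35. Triacylglycerol lipase *POX09353*, which releases fatty acids from storage fat, had 3.85, 1.03 and 1.52 FPKM in the GLU libraries, against 311, 299.6 and 265 FPKM in the NC libraries (log2 fold change = -6.65 ± 0.29, adjusted *p* = 1.33e-06). *POX00050* and *POX06458* of the same family fell, with log2 fold changes of -4.57 ± 0.085 and -4.32 ± 0.11, and *POX09578* and *POX08245* rose by 1.98 ± 0.19 and 1.78 ± 0.17. The cutinase *POX07378*, of the class of enzymes that cut polyesters of plant cuticles, had 81.3, 5.81 and 8.69 FPKM in the GLU libraries, against 4808, 4467 and 3206 FPKM in the NC libraries (log2 fold change = -7.87 ± 0.85, adjusted *p* = 0.000118). GLU replicate 1 stood far above the other GLU libraries and still far below NC, and the log2 fold change lay between -8.98 and -7.18 when 1 library was left out. Of 8 AA3 oxidoreductases tested (11 listed), 6 fell and none rose (median -1.46), led by *POX09233*, *POX06589* and *POX07452* (-3.75 ± 0.16, -2.45 ± 0.11 and -2.44 ± 0.12). Of 15 AA7 flavo-oxidases tested (20 listed), 1 rose and 4 fell (median -0.78). *POX01852* rose by 1.05 ± 0.062, and *POX05852*, *POX06602* and *POX05260* fell, with log2 fold changes of -1.93 ± 0.12, -1.57 ± 0.12 and -1.31 ± 0.084, the call of *POX05260* being lost after rescaling.

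Enzymes that act on the fungal wall itself changed gene by gene. Of 20 chitin-degrading enzymes tested (24 listed), 2 rose and 6 fell (median -0.45). The chitinase *POX07971* had 384, 398 and 362 FPKM in the GLU libraries, against 93.1, 64.8 and 62.9 FPKM in the NC libraries (log2 fold change = 2.38 ± 0.15, adjusted *p* = 7.04e-06), and the chitosanase *POX01934* rose by 2.85 ± 0.13. Chitinases *POX00089*, *POX07145* and *POX07483* fell, with log2 fold changes of -2.34 ± 0.20, -2.08 ± 0.068 and -1.65 ± 0.081. Of 17 fungal glucan-degrading enzymes tested (23 listed), 2 rose and 7 fell, and 5 rose and 4 fell after rescaling. *POX04686* and *POX06324* rose by 1.33 ± 0.20 and 1.25 ± 0.32, of which *POX06324* was not called without NC replicate 3 (0.91), and *POX04536*, *POX09231* and *POX02423* fell, with log2 fold changes of -2.34 ± 0.08, -1.89 ± 0.13 and -1.74 ± 0.15.

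Wall synthases and glucanosyltransferases, which build and cross-link the wall of growing hyphae, had a median of 0.65, with 3 of 11 tested up and 2 down (12 listed). The chitin glucanosyltransferase *POX05188* had 46.8, 38.4 and 44.3 FPKM in the GLU libraries, against 0.77, 1.42 and 1.09 FPKM in the NC libraries (log2 fold change = 4.41 ± 0.14, adjusted *p* = 3.26e-07), and the GH72 glucanosyltransferase *POX04626* had 165, 169 and 176 FPKM in the GLU libraries, against 64.7, 64.5 and 49.6 FPKM in the NC libraries (log2 fold change = 1.51 ± 0.11, adjusted *p* = 1.55e-05). *POX06042* and *POX08080* fell, with log2 fold changes of -1.09 ± 0.078 and -1.06 ± 0.072, both calls being lost after rescaling. The third rise, *POX06241*, missed the threshold with the adjusted *p*-value (0.0678), and its libraries on GLU and NC overlapped. Among 12 trehalose and glycogen enzymes 1 rose and 3 fell, and 4 rose and 3 fell after rescaling. Without GLU replicate 3 or NC replicate 3, 2 rose. Both directions occurred in 1 family here: the trehalose-phosphate synthases *POX08760* and *POX02714* had log2 fold changes of 2.62 ± 0.20 and -2.19 ± 0.10. Trehalose phosphorylase *POX02983* and the trehalase *POX08768*, which breaks down this reserve sugar, fell, with log2 fold changes of -1.62 ± 0.09 and -1.504 ± 0.16.

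Of 19 mannosyltransferases tested (20 listed), 3 rose and 4 fell (median -0.060, and 0.20 after rescaling), with *POX00880*, *POX05044* and *POX03735* up (1.39 ± 0.15, 1.36 ± 0.087 and 1.31 ± 0.13) and *POX00755*, *POX09418* and *POX08581* the largest falls (-2.91 ± 0.097, -1.46 ± 0.094 and -1.46 ± 0.079). Of 14 α-mannosidases and α-1,6-mannanases tested (15 listed), 2 rose and 9 fell (median -1.15). The α-1,6-mannanase *POX08902* had 38.9, 35.4 and 43.2 FPKM in the GLU libraries, against 0.53, 0.25 and 0.49 FPKM in the NC libraries (log2 fold change = 4.82 ± 0.12, adjusted *p* = 1.85e-07), whereas the α-mannosidases *POX00053*, *POX08347* and *POX06067* fell, with log2 fold changes of -3.65 ± 0.09, -2.31 ± 0.091 and -2.100 ± 0.11. The α-mannosidase *POX09056* rose by 1.07 ± 0.14, and was not called without NC replicate 3 (0.97).

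The named regulators fell on GLU or were not called. Of the 21 named regulators, none rose and 8 fell (median -0.82), and 6 fell after rescaling. *POX07254/CreA*, the repressor that mediates catabolite repression, had 180.1, 176 and 167 FPKM in the GLU libraries, against 494, 618 and 554 FPKM in the NC libraries (log2 fold change = -1.66 ± 0.094, adjusted *p* = 4.33e-06). *POX01167/CxrA*, a regulator of cellulase and xylanase genes in this species, had 10.3, 11.3 and 13.1 FPKM in the GLU libraries, against 135, 102 and 111 FPKM in the NC libraries (log2 fold change = -3.21 ± 0.13, adjusted *p* = 8.69e-07). *POX03888/PrtT*, which in *Aspergillus* activates secreted protease genes, had 6.59, 6.1 and 6.6 FPKM in the GLU libraries, against 46.9, 60.5 and 50.7 FPKM in the NC libraries (log2 fold change = -2.85 ± 0.11, adjusted *p* = 6.52e-07). Every NC library exceeded every GLU library in the 3 genes, while the groups did not overlap in 74.5% of all genes tested. *POX01118*, *POX01678* and *POX08415/NsdD* fell, with log2 fold changes of -1.48 ± 0.086, -2.11 ± 0.20 and -1.35 ± 0.10, and so did *POX03016/Atf1* and *POX07025/AbaA* (-1.195 ± 0.078 and -1.06 ± 0.12), both calls being lost after rescaling and that of *AbaA* also without NC replicate 2 (-0.996).

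ClrB, XlnR and AmyR did not pass the fold threshold. *POX01960/ClrB*, an activator of cellulase genes, had 22.6, 24.5 and 24.9 FPKM in the GLU libraries, against 51.02, 50.5 and 42.05 FPKM in the NC libraries and a log2 fold change of -0.96 ± 0.095, which crossed the threshold without NC replicate 3 (-1.05). *POX05324/XlnR*, an activator of xylanase genes, averaged 10.7 ± 0.255 FPKM on GLU and 19.7 ± 3.23 FPKM on NC (-0.82 ± 0.12). *POX03890/AmyR*, the activator of amylase genes, averaged 56.3 ± 6.99 FPKM on GLU and 87.9 ± 20.1 FPKM on NC (-0.62 ± 0.17). *POX04420/CxrB*, *POX03837/ClrA* and *POX02071/ClrB-2* had log2 fold changes of -0.83 ± 0.13, -0.33 ± 0.095 and 0.071 ± 0.13. The other regulators that were not called, *POX08292/MBF1*, *POX01257/STE12*, *POX02484* and *POX01474*, lay between -0.66 and 0.48.

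Among all 274 transcription factors tested (283 listed), 18 rose and 62 fell, and 28 rose and 42 fell after rescaling. The share called was 29.2%, near the 25.9% of all genes tested. The regulator *POX06377*, annotated as paiB, had 404, 428 and 367 FPKM in the GLU libraries, against 50.4, 45.97 and 48.5 FPKM in the NC libraries (log2 fold change = 3.02 ± 0.08, adjusted *p* = 1.97e-07). The C2H2 factor *POX04769* had 220.5, 248 and 237 FPKM in the GLU libraries, against 44.6, 31.6 and 26.2 FPKM in the NC libraries (log2 fold change = 2.78 ± 0.18, adjusted *p* = 7.53e-06). The Zn2Cys6 factors *POX04567*, *POX01387* and *POX09752* rose by 2.62 ± 0.18, 2.26 ± 0.096 and 1.96 ± 0.11. The largest falls outside the named regulators were those of the winged helix factor *POX01184* (-4.12 ± 0.084) and of the Zn2Cys6 factors *POX06759*, *POX02944* and *POX09124* (-3.89 ± 0.17, -3.11 ± 0.074 and -3.09 ± 0.17). By family, 7 rose and 30 fell among 110 Zn2Cys6 factors tested (113 listed), which was 33.6% called. Among 38 C2H2 factors (39 listed), 2 rose and 4 fell, which was 15.8% called. Their median of -0.18 became 0.081 after rescaling. *POX06195*, which carries homeobox and C2H2 domains, rose by 1.83 ± 0.096, and *POX08097* and *POX06396* fell, with log2 fold changes of -1.605 ± 0.22 and -1.52 ± 0.32. Of 16 factors of the bZIP family tested (17 listed), 5 rose and 3 fell, and after rescaling 5 rose and none fell. *POX01486*, *POX00972* and *POX05374* rose by 2.05 ± 0.10, 1.63 ± 0.16 and 1.25 ± 0.082, and *POX05374* averaged 2010.4 ± 52.6 FPKM on GLU and 847 ± 52.7 FPKM on NC. The bZIP factors that fell besides *Atf1* were *POX02889* and *POX06666* (-1.31 ± 0.11 and -1.15 ± 0.18). Of 18 G protein-coupled receptors, which sense signals at the cell surface, 1 rose and 6 fell, and 3 fell after rescaling. *POX01973*, with the domain of fungal rhodopsins, had 290.4, 254 and 243 FPKM in the GLU libraries, against 1594, 1757 and 1806 FPKM in the NC libraries (log2 fold change = -2.71 ± 0.095, adjusted *p* = 4.74e-07). *POX01120* and *POX06057* fell, with log2 fold changes of -1.47 ± 0.067 and -1.46 ± 0.092, and *POX02499* rose by 1.32 ± 0.078.

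The study built co-expression modules over the whole series. Of these, MEivory had 7 genes up and 26 down of 108 tested (120 listed, median -0.50). MEroyalblue had 6 up and 66 down of 140 tested (157 listed, median -0.94). The shares called were 30.6% in MEivory and 51.4% in MEroyalblue, against 25.9% of all genes tested. After rescaling, MEivory had 9 up and 20 down, and MEroyalblue had 9 up and 47 down. Besides *POX06983* and *POX09827*, *POX02495* rose in MEivory (1.56 ± 0.21), and the acetylesterase *POX02739*, the sugar transporter *POX07415* and *POX03930* fell, with log2 fold changes of -4.67 ± 0.35, -3.16 ± 0.23 and -2.897 ± 0.33. In MEroyalblue the largest falls were those of the peptidase *POX05575* (-5.04 ± 0.27), of *POX08307* (-4.88 ± 0.19) and of the α-glucoside transporter *POX01920* (-4.56 ± 0.12). *Xyn11A*, the pectin methylesterase and *POX09701*, which carries domains of peptide synthetases, rose there, the last by 1.76 ± 0.12. *POX02832/GalM* fell, with a log2 fold change of -2.93 ± 0.11 and *POX07164/TpiA* had one of -0.52 ± 0.11. Of the 16 peptidases in MEroyalblue, 1 rose and 6 fell, and 2 rose without GLU replicate 3 or NC replicate 2. The aspartic peptidase *POX05007* rose, with 519.9, 735 and 631 FPKM in the GLU libraries, against 195, 234 and 215 FPKM in the NC libraries (log2 fold change = 1.54 ± 0.14, adjusted *p* = 3.99e-05), and the carboxypeptidases *POX06610* and *POX01929* fell, with log2 fold changes of -3.45 ± 0.12 and -3.201 ± 0.43.

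The labelled tissue, mycelium, was checked against 9 markers of conidiation, the formation of asexual spores on aerial stalks. The markers were BrlA, AbaA, FlbB, FlbD, NsdD, Alb1, ArpA, AygA and AbrA. Their summed FPKM was 196–219 in the GLU libraries, against 353–415 in the NC libraries, and most of it came from NsdD and FlbB. The wider list of 12 conidiation genes, which lacks NsdD and holds NimX, TmpA and the ArpA-like and ArpB-like genes, summed to 214–352 FPKM on GLU, against 13238–20723 FPKM on NC, nearly all of the NC sum being from the ArpA-like and ArpB-like genes. The defining markers were near 0 in both media. *POX06534/BrlA*, which starts conidiation, had 0.83, 1.72 and 1.03 FPKM in the GLU libraries, against 2.51, 1.14 and 0.93 FPKM in the NC libraries and was not called (-0.17 ± 0.26). *POX07025/AbaA*, which acts after BrlA, was at 0.98–1.14 FPKM on GLU and 3.07–3.73 FPKM on NC. *POX01430/Alb1*, the synthase for spore pigment, was at 0.55–0.71 FPKM on GLU and 0.65–1 FPKM on NC. Their part in the differences between GLU and NC was not tested. In bulk RNA, fewer cells of a kind and less RNA per cell cannot be told apart.

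In the whole list of 12 conidiation genes, none rose and 6 fell on GLU (median -0.89), and 4 fell after rescaling. *POX03412/ArpA* and *POX01391/AbrA*, both of the pigment pathway, fell, with log2 fold changes of -1.52 ± 0.21 and -1.45 ± 0.095, and so did *POX05090/TmpA* (-1.21 ± 0.11), the last call being lost after rescaling. *POX01390/AygA*, *POX07099/FlbD*, *POX07586/FlbB* and *POX00872/NimX* were not called (-0.72 ± 0.19, -0.44 ± 0.14, 0.026 ± 0.085 and -0.41 ± 0.067). The remaining 2 members, *POX01176* (ArpA-like) and *POX01179* (ArpB-like), are named for their likeness to pigment genes. *POX01176* had 104, 5.19 and 20.6 FPKM in the GLU libraries, against 12174, 7673 and 7691 FPKM in the NC libraries (log2 fold change = -8.54 ± 0.89, adjusted *p* = 0.000103). *POX01179* had 62.98, 3.23 and 18.8 FPKM in the GLU libraries, against 8266, 5283 and 5397 FPKM in the NC libraries (log2 fold change = -8.46 ± 0.86, adjusted *p* = 8.64e-05). GLU replicate 1 was the highest of the GLU libraries in both genes, and their log2 fold changes lay between -9.60 and -7.56 and between -9.40 and -7.44 when 1 library was left out.

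These 2 genes belong to a run of 22 consecutive locus numbers, *POX01167* to *POX01188*, in which every gene fell on GLU. The run was noticed after the values were seen and is described without a test, and the files give no coordinates, so that whether the numbers follow the chromosome was not checked here. It opens with *CxrA*. The 15 genes from *POX01168* to *POX01182* fell by 7.01 to 8.92 on the log2 scale, and *POX01175*, with 13.9, 1.85 and 6.86 FPKM in the GLU libraries, against 3286, 2612 and 4396 FPKM in the NC libraries, had the largest fall of all genes tested (log2 fold change = -8.92 ± 0.54, adjusted *p* = 6.41e-06). Together the 22 genes took 0.012–0.058% of the summed FPKM of the GLU libraries, against 4.34–6.96% in the NC libraries. The 7 genes at the ends, *CxrA* and *POX01183* to *POX01188*, fell by 1.99 to 4.12 on the log2 scale, and among them *POX01183* and *POX01184* are annotated as transcription factors. All 22 genes were called without any 1 of the 6 libraries, with medians of -8.76 (without GLU replicate 1) to -7.35 (without GLU replicate 2). *POX01165*, just outside the run, went the other way (7.19 ± 0.21), and *POX01166/Cel5B* was not called.

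Another run, of 11 numbers from *POX09330* to *POX09340*, rose on GLU, with a median log2 fold change of 4.89. *POX09337* had 2387, 2616 and 2191 FPKM in the GLU libraries, against 62.9, 25.9 and 26.6 FPKM in the NC libraries (log2 fold change = 6.05 ± 0.32, adjusted *p* = 3.04e-06), and *POX09340* had 583, 644 and 615 FPKM in the GLU libraries, against 10.2, 3.59 and 3.44 FPKM in the NC libraries (log2 fold change = 6.65 ± 0.33, adjusted *p* = 2.41e-06). The ABC transporter *POX09334* is the only member with an annotation in the tables of the study used here. The run took 0.814–0.901% of the summed FPKM on GLU, against 0.047–0.063% on NC. Further runs that rose were *POX09356* to *POX09361*, which holds *POX09358* and *POX09357* (8.01 ± 0.22), *POX07862* to *POX07865* and *POX09674* to *POX09678*. The median of *POX09356* to *POX09361* at 4 h was 542–586 FPKM on GLU, against 3190, 2855 and 421 FPKM on NC. The GLU libraries thus lay between the NC libraries at that time. The run *POX07862* to *POX07865*, which holds *POX07863* and *POX07864*, had medians of 374–431 FPKM in the GLU libraries at 12 h, against 1.65–3.24 FPKM in the NC libraries. At 24 h GLU and NC overlapped: the medians were 399, 339 and 262 FPKM on GLU, against 251 and 339 FPKM in the 2 NC libraries whose labels do not conflict. At 48 h they were 108–122 FPKM on GLU, against 3.36–3.89 FPKM on NC. *POX09364*, whose rise was the largest of all genes tested, had 653, 973 and 897 FPKM in the GLU libraries, against 1.56, 0.52 and 2.27 FPKM in the NC libraries (log2 fold change = 8.47 ± 0.28, adjusted *p* = 3.86e-07). Over all genes, 10 runs of at least 4 consecutive numbers rose and 44 fell, and they held 53 of the 669 up-regulated and 219 of the 1637 down-regulated genes. Those shares were 7.92% and 13.38%. Runs were counted with the deposited FPKM, where more genes were called down than up, and were not counted again after rescaling.

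**Figure D4:**
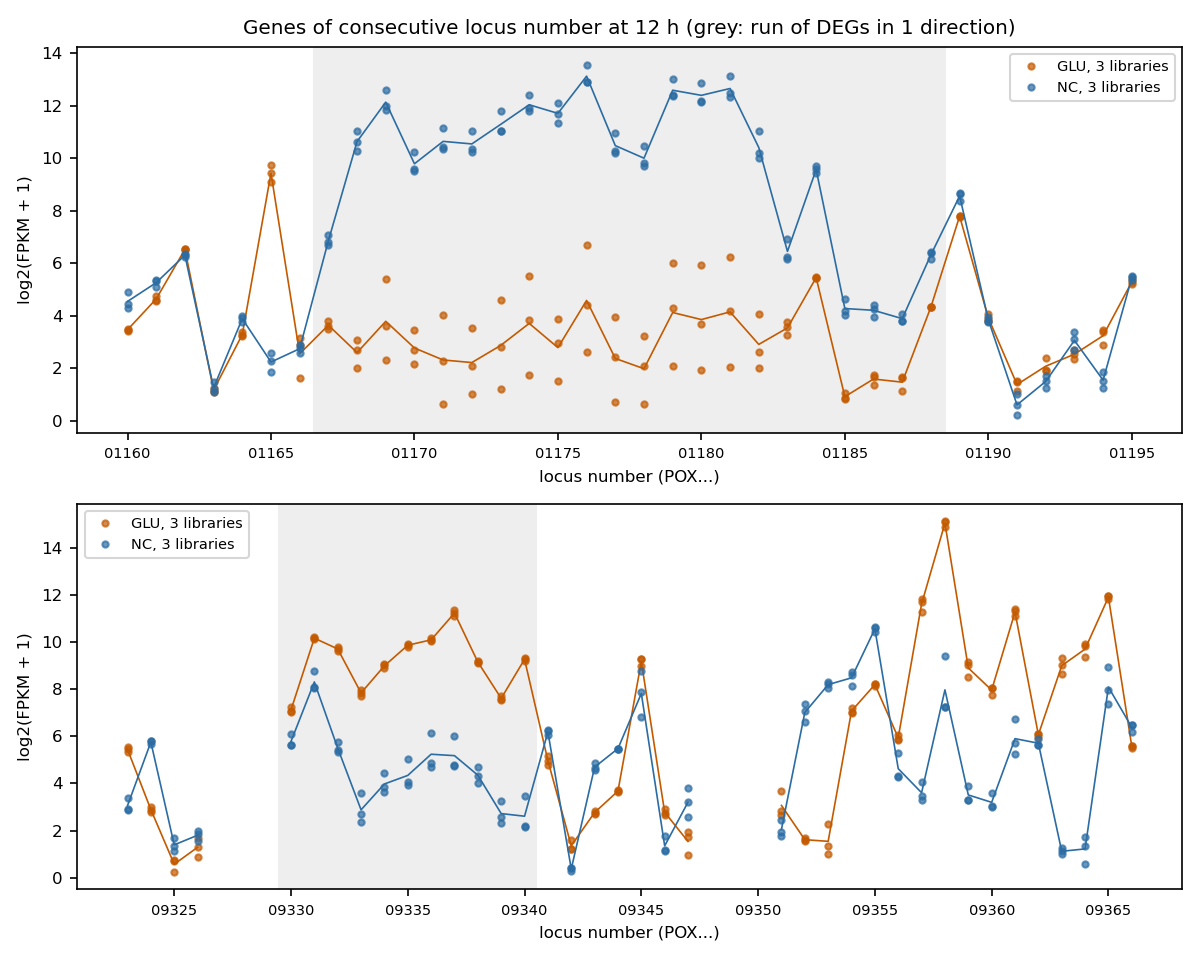
Level on the log2(FPKM + 1) scale of genes with neighbouring locus numbers (horizontal axis) in the 3 GLU libraries (orange) and the 3 NC libraries (blue) at 12 h, with lines through the group means and gaps at numbers that were not tested. The grey bands mark *POX01167* to *POX01188*, where all 22 genes are lower on GLU, and *POX09330* to *POX09340*, where all 11 are higher on GLU.

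The change at 12 h was set against the same comparison at 4 h and at 48 h, each with its own 3 GLU and 3 NC libraries, to see which differences belonged to this time. On GLU compared with NC, 2253 genes were called at 4 h (25.3%), 7.78% up and 17.5% down, and 1279 at 48 h (14.4%), 5.27% up and 9.1% down. The log2 fold change at 12 h differed from that at 4 h in 1898 genes (21.3% of those tested; interaction, adjusted *p* ≤ 0.05 and a difference of at least 1), being higher at 12 h in 908 (10.2%) and lower in 990 (11.1%). It differed from that at 48 h in 2636 genes (29.6%), being higher at 12 h in 869 (9.77%) and lower in 1767 (19.9%). After rescaling the counts were 1123 higher and 712 lower against 4 h, and 1293 higher and 1017 lower against 48 h. Without NC replicate 1 at 48 h, which was left out after the data were seen, 2615 genes differed from 48 h.

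The lists differed in how their counts of falls compared between times. The sugar transporters that fell on GLU numbered 37 at 4 h, 46 at 12 h and 15 at 48 h, and the change at 12 h was lower than at 48 h in 31 of the 64 and higher in 5. Starch-degrading enzymes had 9 falls at 4 h, 8 at 12 h and none at 48 h, and the change was lower at 12 h than at 48 h in 9 of the 12. Pectin-degrading enzymes had 13, 19 and 4 falls, with 16 of 30 lower at 12 h than at 48 h. Enzymes that act on the fungal wall did not follow this: chitin-degrading enzymes had 9, 6 and 8 falls, with the change higher at 12 h than at 48 h in 8 of 20 and lower in 5, and fungal glucan-degrading enzymes had 7, 7 and 8 falls, with 7 of 17 higher and 2 lower. Against 4 h fewer sugar transporters, starch-degrading and pectin-degrading enzymes differed, 18, 6 and 8 genes. Rate-limiting enzymes of glycolysis and the TCA cycle had 5 rises at 4 h, 1 at 12 h and none at 48 h, but the change at 12 h differed from that at 4 h in 1 gene and from that at 48 h in 4.

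Conidiation genes were called down in 3 genes at 4 h, 6 at 12 h and 10 at 48 h. The difference from 48 h was called in 8 of the 12, being higher at 12 h in 6 and lower in the ArpA-like and ArpB-like genes. *POX06534/BrlA* at 48 h had 3.2, 4.32 and 3.86 FPKM on GLU, against 177, 121 and 118 FPKM on NC, and its change at 12 h minus that at 48 h was 4.67 ± 0.34, adjusted *p* = 2.43e-07. *POX01176* at 48 h had 5118, 5001 and 4828 FPKM on GLU, against 14758, 10044 and 13366 FPKM on NC, and at 4 h 0.26, 0.13 and 0.77 FPKM on GLU, against 3.21, 4.73 and 5 FPKM on NC. Its change at 12 h minus that at 48 h was -7.204 ± 1.02, adjusted *p* = 6.43e-05, and minus that at 4 h it was -6.59 ± 1.04, adjusted *p* = 0.000334. The whole run *POX01167* to *POX01188* took 0.003% of the summed FPKM on GLU at 4 h, against 0.016–0.026% on NC, and 2.57–2.66% on GLU at 48 h, against 5.79–8.40% on NC. The level was thus low in both media at 4 h and high in both at 48 h, and all 22 genes had a lower change at 12 h than at 48 h, 18 of them also a lower change than at 4 h. At 24 h, which entered no test, the run took 0.027, 0.034 and 0.02% on GLU. In NC replicates 1 and 2 at 24 h, whose labels do not conflict, it took 2.397 and 2.26%. A gap between the media was therefore also seen at 24 h and was not particular to 12 h.

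**Figure D5:**
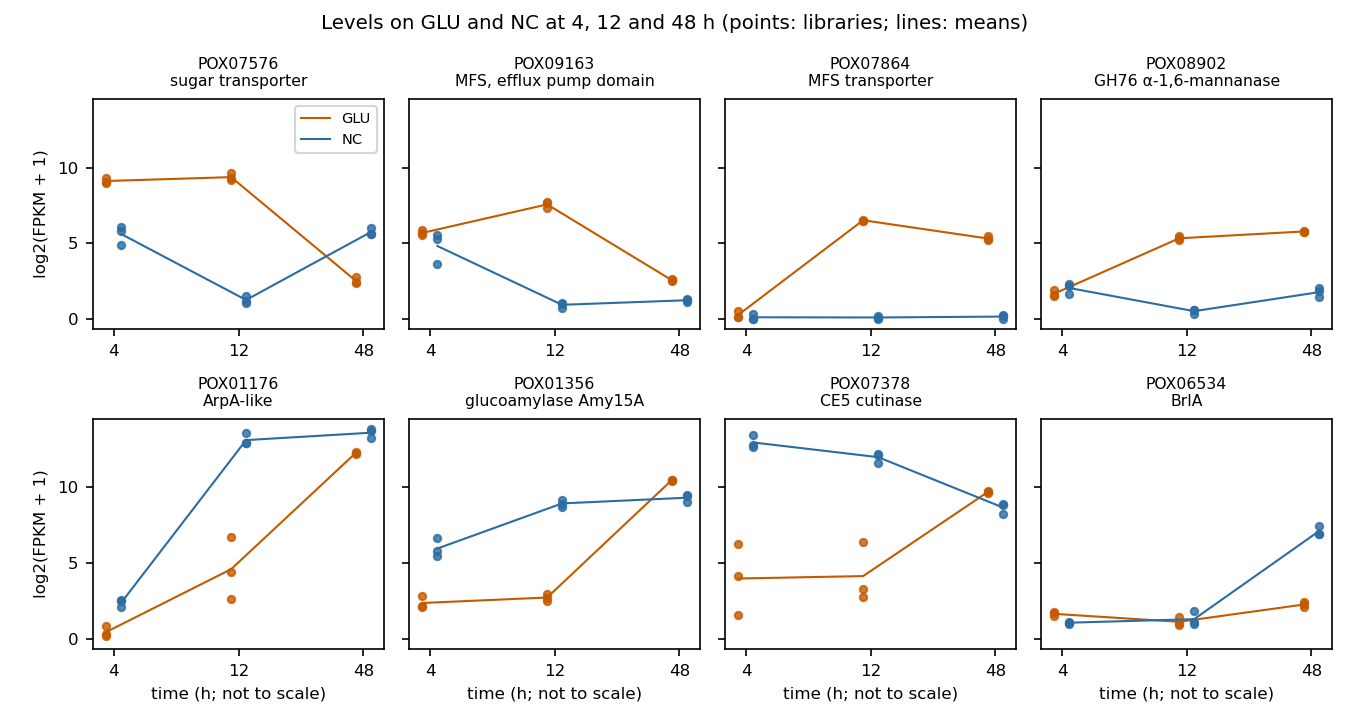
Level on the log2(FPKM + 1) scale (vertical axis) of 8 genes on GLU (orange) and NC (blue) at 4, 12 and 48 h, with a point for each of 3 libraries and lines through the means. *POX07864* and *POX08902* are higher on GLU than on NC at 12 h and at 48 h, 24 h is not drawn, *POX07576* and *Amy15A* change sides by 48 h, and *POX01176* is low in both media at 4 h and high in both at 48 h.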

How the data were processed

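The authors sequenced mRNA of 72 libraries (24 conditions, 3 each), mapped the reads and deposited 1 table of FPKM per library. The submitters' notes name BWA 0.7.10-r789, Bowtie2 2.1.0, RSEM 1.2.12 and DESeq2. Read counts were not used here, so the precision that depth gives could not be computed per gene.

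Groups were taken from the labels. Genes absent from a table were set to 0 (the lowest value listed was 0.01 FPKM), and genes averaging at least 1 FPKM over all 72 libraries were kept (8898 of 9821). log2(FPKM + 1) was compared between 3 GLU and 3 NC libraries with limma 3.58.1 (R 4.3.3) with an intensity trend, at an unadjusted significance level of 0.05 and a fold change of 1 or more on the log2 scale, in either direction. Interactions used the 12 libraries of both times. The script was tested on simulated data. Members and lists were chosen with earlier results of these data known. Genes were named by rule. The largest changes were taken among DEGs whose GLU and NC libraries did not overlap, so that their separation follows from the choice. Also named were the most abundant genes, all regulators, rate-limiting enzymes and conidiation genes. Up to 3 rises and 3 falls per list and the largest differences between times were added. Alternatives were a pseudocount of 0.1, other filters, no trend and rescaling by the median of ratios. Further ones were 1 fit over all libraries, a replicate block, adjusted *p*-values and leaving out each of the 6 libraries at 12 h. For the difference from 48 h, NC replicate 1 at 48 h was also left out. The 24 h libraries entered no test, because labels of 1 NC library conflict.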

Additional observations from a re-analysis of the deposited data

Results flagged for a closer look

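The change on GLU compared with NC differed between times in the genes below, which had the largest differences among annotated genes by the limma interaction test (3 libraries per medium and time). Values are the log2 fold change at 12 h minus that at the other time, with the standard error.

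Against 4 h, the change was higher at 12 h in the major facilitator *POX07864* (6.26 ± 0.20, adjusted *p* = 5.57e-09), in *POX09163* with an efflux pump domain (5.77 ± 0.55, adjusted *p* = 1.03e-05), in the α-1,6-mannanase *POX08902* (5.19 ± 0.25, adjusted *p* = 1.63e-07), in the ABC transporter *POX04431* (4.76 ± 0.46, adjusted *p* = 1.24e-05) and in the sugar transporter *POX07576* (4.61 ± 0.36, adjusted *p* = 3.04e-06). It was lower at 12 h in the major facilitator *POX01168* (-8.67 ± 0.36, adjusted *p* = 4.82e-08), in *POX01179* (-7.03 ± 1.02, adjusted *p* = 0.000188), in *POX01176* (-6.59 ± 1.04, adjusted *p* = 0.000334), in the sugar transporter *POX06426* (-4.52 ± 0.32, adjusted *p* = 1.6e-06) and in *POX09829* (-3.84 ± 0.38, adjusted *p* = 1.37e-05). *POX07864* at 4 h had 0.46, 0.08 and 0.11 FPKM on GLU, against 0, 0 and 0.23 FPKM on NC, and was thus near 0 in both media before the difference at 12 h.

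Against 48 h, the change was higher at 12 h in *POX07576* (11.34 ± 0.23, adjusted *p* = 5.36e-11), in the chitinase *POX09387* (6.68 ± 0.73, adjusted *p* = 7.6e-06), in the AA1 oxidase *POX08694* (6.52 ± 0.39, adjusted *p* = 5.63e-08), in the winged helix factor *POX09469* (6.27 ± 0.35, adjusted *p* = 2.84e-08) and in *POX09163* (5.31 ± 0.18, adjusted *p* = 7.47e-10). It was lower at 12 h in the cutinase *POX07378* (-8.89 ± 0.97, adjusted *p* = 7.98e-06), in *POX01168* (-7.94 ± 0.33, adjusted *p* = 3.43e-09), in *POX01356/Amy15A* (-7.39 ± 0.21, adjusted *p* = 3.48e-10), in *POX01176* (-7.204 ± 1.02, adjusted *p* = 6.43e-05) and in *POX01179* (-6.96 ± 0.99, adjusted *p* = 6.43e-05). *POX07576* at 48 h had 4.12, 5.83 and 4.34 FPKM on GLU, against 48.7, 62.1 and 46.9 FPKM on NC, so that its direction at 48 h was opposite to that at 12 h. *POX09387* at 48 h had 4.99, 4.05 and 4.1 FPKM on GLU, against 2182, 300.1 and 988 FPKM on NC, whereas at 12 h it was not called (-0.66 ± 0.20).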

How the results depend on the processing

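Over the alternatives tried no called named gene changed direction, whereas some uncalled ones near 0, such as *Cel6A* and *BrlA*, did, and 2083 (rescaled by the median of ratios) to 2656 (pseudocount of 0.1) genes were called, against 2306. Leaving out 1 library gave 2275–2373 genes, with 651–681 up and 1609–1692 down. Of the listed genes 456–476 were called without 1 library, against 465, and of the named genes 147–150, against 150. The difference from 4 h was called in 1824–1934 genes when 1 library at 12 h was left out, against 1898. For 48 h the range was 2615–2705, against 2636, with NC replicate 1 at 48 h also left out in turn. No library at 4 h was left out, although NC replicate 3 at 4 h stood apart in some genes. *POX02405*, for example, had 641, 773 and 1927 FPKM in the NC libraries at 4 h. How far the counts against 4 h depend on that library was not tested. Rescaling had the largest effect on the balance: genes with a lower change at 12 h than at 48 h numbered 1017, against 1767, and 13 named calls were lost and 3 gained. The cause was not tested beyond the shift of all log2 fold changes by 0.31. The choice of leaving out NC replicate 1 at 48 h was made after seeing the data.

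The labels do not say whether the replicate numbers pair the libraries. The deviations of same-numbered GLU and NC libraries from their group means correlated at -0.019, 0.046 and 0.11. Those of differently numbered libraries correlated at -0.117 to 0.086. With 3 libraries per group, these values cannot decide whether the libraries were paired. With the replicate block 2308 genes were called (669 up and 1639 down), and no named call changed.

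FPKM without read counts give no counting error, and levels near 1 FPKM, such as those of *BrlA* and *Alb1*, lie close to the pseudocount, which compresses their fold changes. The 3 libraries per group limit the estimate of spread, most for genes with 1 library far from the others, such as *CdtC* and *POX07378*.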

Other observations

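The run *POX01167* to *POX01188* was also read in the other carbon sources at 12 h, where no comparison was made. It took 1.9–5.6% of the summed FPKM on Avicel, 1.1–3.9% on 2-hydroxyethyl cellulose, 0.9–1.3% on methyl cellulose and 0.011–0.013% on wheat bran. The GLU libraries had 0.058, 0.012 and 0.023%.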
